A study of Bos taurus with 6 samples.

Results

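The TLE corepressors and their RUNX partners are 7 listed genes, TLE1, TLE2, TLE3, TLE4, RUNX1, RUNX2 and CBFB, and they were followed here in bovine cumulus cells cultured with or without FID. Members were taken by gene symbol from the platform annotation. Of the 7 symbols 6 had a probe, among 15229 distinct symbols on the array, and together they had 9 of 43794 probes. TLE3 had 4 probes and TLE1, TLE2, TLE4, RUNX1 and CBFB had 1 each. No probe carried the symbol RUNX2, so RUNX2 was not analysed here. The set was chosen by the measured FID over control ratio of TLE1, already known to be high in these same arrays, and by the genes' known roles. The FID over control values of the members are therefore given as a description, and whether a member passed the fit over all probes is printed for completeness and is no evidence for it.

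FID cells were cumulus cells from cumulus-oocyte complexes matured with 100 µM forskolin, 500 µM IBMX and 50 µM dipyridamole, given together. Forskolin activates adenylyl cyclase, and IBMX and dipyridamole inhibit phosphodiesterases. Control cells came from complexes matured without these 3 agents. The medium of FID and control complexes held serum and estradiol at 1 µg/ml. The ovaries of origin were from slaughtered Holstein cows, and their age and number are not given in the labels, and both groups were cultured around the oocyte. The control label carries 6 h, whereas the culture protocol gives 22 to 24 h, and the time behind the comparison is not settled. The 3 biological replicates, numbered 1, 2 and 4, were each hybridised on 2 arrays with the dyes exchanged, giving 6 arrays that each held FID and control RNA.

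TLE proteins, the vertebrate relatives of Drosophila Groucho, do not bind DNA themselves. They are brought to genes by DNA-binding factors such as HES, TCF/LEF and RUNX proteins, and they recruit histone deacetylases that keep chromatin closed. RUNX1 and RUNX2 bind DNA as a pair with CBFB, which strengthens their binding, and in rodents both RUNX genes are induced in granulosa cells by the ovulatory luteinizing hormone surge.

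Values are log2 ratios of FID over control after background correction and loess normalization of each array, averaged over both arrays of a replicate. The background bound of a channel was the 95th percentile of its 153 negative controls. A probe was tested where its raw intensity exceeded that bound on 4 or more of the 6 arrays in FID cells, or in control cells. Of all probes 32124 were tested, among them all 9 member probes, and a gene was represented by its brightest tested probe, which gave 12363 genes. The RUNX1 probe passed this filter only through FID cells. No member spot was saturated or marked as unreliable on any array. The arrays had a median raw intensity of 173 to 294 in FID cells and 143 to 255 in control cells. Of 19 tested granulosa and cumulus markers, 18 were above background on all 6 arrays in FID cells and 18 in control cells. The list's summed raw intensity was 156570 to 175314 in FID cells and 151598 to 180619 in control cells. None of the 19 passed the limma test, and 9 had an unadjusted p under 0.05, where 7561 of all 32124 tested probes did. Single ratios ran from -1.55 to 1.71, with 10 above 0, so the similar sums do not mean unchanged markers. Of 19 blood and immune markers 11 were tested and none passed the limma test, with 3 at an unadjusted p under 0.05. In this list 4 genes, PTPRC, CD74, CD68 and HBA, were above background on all arrays in both groups, and ITGAM, TYROBP and ITGB2 on no array. The summed intensity of the list was 2772 to 5688 in FID cells and 2196 to 3680 in control cells. As these are bulk samples, a change in the number of cells of one type and a change in RNA per cell cannot be told apart.

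TLE1, a full-length corepressor of the family, had the largest ratio of the members. On the arrays with FID in Cy5 its raw intensity was 1278, 5171 and 1622 in FID cells of replicates 1, 2 and 4, against 411, 468 and 352 in control cells. On the arrays with FID in Cy3 it was 1375, 2610 and 2234 in FID cells, against 273, 373 and 374 in control cells. The lowest FID value lay above the highest control value, and on all 6 arrays the probe exceeded the background bound in FID and control cells alike. The log2 ratios were 2.20, 3.97 and 2.69 with FID in Cy5 and 2.49, 2.83 and 2.53 with FID in Cy3. By replicate they were 2.35, 3.40 and 2.61, with a mean of 2.78 ± 0.55 (SD, n = 3), or 6.89-fold. Only 8 of the 12363 genes had a larger mean ratio. In the authors' deposited table the TLE1 ratios, turned to FID over control, ran from 2.14 to 3.81 with a mean of 2.68 over the replicates.

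**Figure D1:**
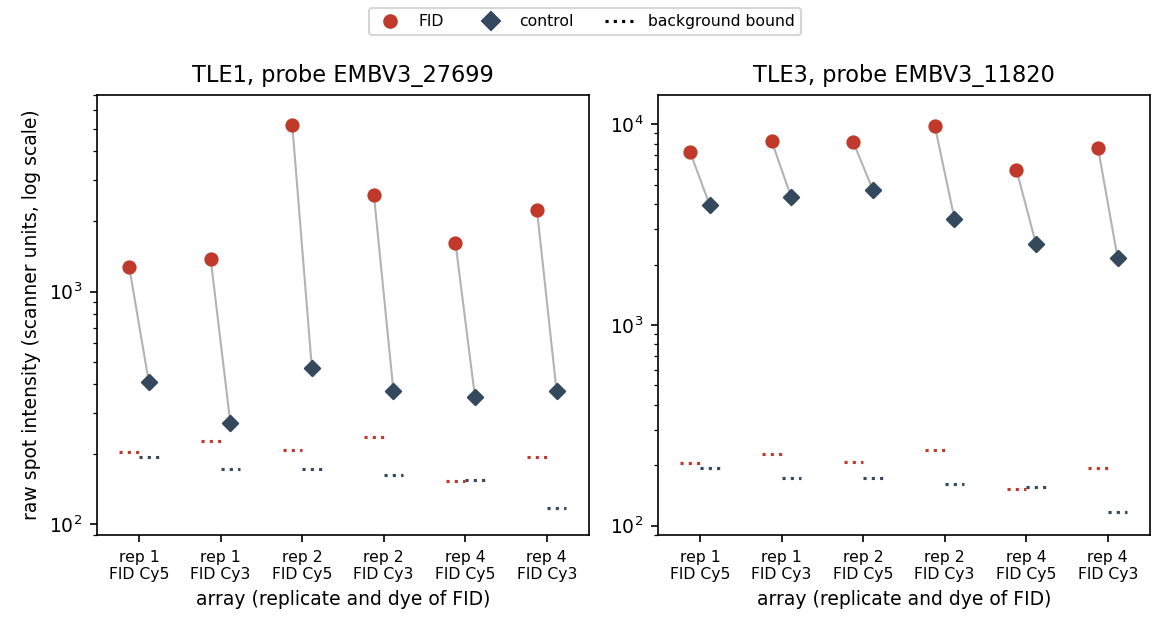
Raw spot intensity (scanner units, log scale) of the TLE1 probe and of the brightest TLE3 probe on each of the 6 arrays, in FID cells and control cells, with each channel's background bound dotted. TLE1 ranges from 1278 to 5171 in FID cells and from 273 to 468 in control cells, and TLE3 is brighter in FID cells on every array.

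The array with FID in Cy5 of replicate 2 gave the highest TLE1 ratio. In that replicate the ratio was 1.14 higher with FID in Cy5 than with FID in Cy3, a gap larger in size than that of 97.3% of all genes. In replicates 1 and 4 the same gap was -0.29 and 0.16, larger in size than in 46.2% and 28.0% of genes. The disagreement between dyes was thus a feature of 1 replicate, and leaving that replicate out gave a TLE1 mean of 2.48. Expressed as a log2 level over each array's median, TLE1 lay at 2.63, 4.17 and 3.34 in FID cells of replicates 1, 2 and 4, and at 0.27, 0.78 and 0.70 in control cells. The control replicates spanned 0.51 and the FID replicates 1.54, so for TLE1 the replicates differed more in FID cells than in control cells. The highest FID level was that of replicate 2, where the dyes disagreed. For the brightest TLE3 probe the order was the reverse, with spans of 0.25 in FID cells and 0.78 in control cells.

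Markers of the oocyte, the cell that cumulus cells enclose, were followed beside TLE1. Of 25 listed oocyte genes 21 were tested, and all 21 had a mean ratio above 0, where 51.4% of all genes did. None passed the limma test across all probes. An unadjusted p under 0.05 was seen for 4, where 7561 of all 32124 tested probes had it. The median oocyte ratio was 0.98, and by replicate it was 0.79, 2.44 and 0.09. The summed oocyte intensity was 3392 to 53378 in FID cells and 2875 to 9444 in control cells, and 11 of the 21 were above background on all FID arrays and 6 on all control arrays. TLE1 was highest in replicate 2, where the oocyte list was highest, and had a ratio of 2.61 in replicate 4, where the oocyte median was 0.09. Of 10 tested stromal markers 2, PDGFRA and LUM, fell past the test (limma adjusted p = 0.0476 and 0.0491), and 4 had a ratio above 0. The stromal median was -0.43, with -0.43, -0.67 and 0.06 in replicates 1, 2 and 4 and summed intensities of 9535 to 17555 in FID cells against 23733 to 31494 in control cells. The part of either list in the TLE ratios was not tested.

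TLE3, another full-length corepressor, had the second largest ratio, through its brighter probes. The brightest, EMBV3_11820, had raw intensities of 7236, 8126 and 5919 in FID cells of replicates 1, 2 and 4 with FID in Cy5, against 3949, 4700 and 2529 in control cells. With FID in Cy3 it had 8205, 9754 and 7596 in FID cells, against 4314, 3380 and 2159 in control cells. FID and control values did not overlap over the 6 arrays. Its ratios by replicate were 0.97, 1.24 and 1.78, with a mean of 1.33 ± 0.41 (SD, n = 3), or 2.51-fold. A larger mean ratio was seen in 281 of the 12363 genes. The normalized level of TLE3 in FID cells was 5.21, 5.46 and 5.26 over the array median, and in control cells 4.23, 4.23 and 3.45. For this probe, replicate 4 had the lowest control level and a FID level between those of the other replicates.

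The other 3 TLE3 probes did not all give this ratio. EMBV3_23291 had ratios of 0.60, 1.22 and 2.06 by replicate, with a mean of 1.30 ± 0.73 (SD, n = 3), and its FID and control levels did not overlap either. Its level in FID cells was 3.37, 4.16 and 4.41 over the array median, and in control cells 2.76, 2.95 and 2.33, so here replicate 4 had the highest FID level and the lowest control level. EMBV3_03456 had a mean of 0.20 ± 0.20 and EMBV3_03698 a mean of 0.05 ± 0.20 (SD, n = 3 each). Both of these were dim, at raw intensities of 164 to 282 in FID cells and 131 to 233 in control cells. The background bounds of the arrays were 153 to 237 for FID cells and 118 to 195 for control cells. Each dim probe was higher in FID cells on 4 of 6 arrays. At this signal over background the array limits what the dim probes can say of TLE3. The median over all 4 probes, the dim ones included, gave 0.72 in place of 1.33. In the authors' deposited table the means of the 4 probes, in the order given here, were 1.29, 1.28, 0.17 and 0.04. Where the probes lie in the TLE3 transcripts was not analysed here.

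TLE4, a further full-length corepressor, differed between replicates. Its raw intensity was 297, 512 and 470 in FID cells of replicates 1, 2 and 4 with FID in Cy5, against 422, 557 and 274 in control cells. With FID in Cy3 it was 455, 654 and 838 in FID cells, against 372, 426 and 225 in control cells. The groups overlapped, and the separation was widest in replicate 4. The ratios by replicate were -0.11, 0.29 and 1.38, with a mean of 0.52 ± 0.77 (SD, n = 3). Without replicate 4 the mean was 0.09. Replicate 4 was also the replicate with the highest ratios of both bright TLE3 probes, while the TLE1 ratio was highest in replicate 2.

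TLE2, the remaining full-length member, had small ratios in one direction. Its raw intensity was 1180, 661 and 1151 in FID cells of replicates 1, 2 and 4 with FID in Cy5, against 932, 758 and 904 in control cells. With FID in Cy3 it was 1154, 914 and 1421 in FID cells, against 1013, 753 and 1064 in control cells. The groups overlapped. Normalized ratios were above 0 on all 6 arrays, although the raw FID intensity of replicate 2 with FID in Cy5 lay below control. By replicate the ratios were 0.41, 0.10 and 0.53, with a mean of 0.35 ± 0.22 (SD, n = 3). Under median centring, used instead of loess, its mean was 0.12.

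**Figure D2:**
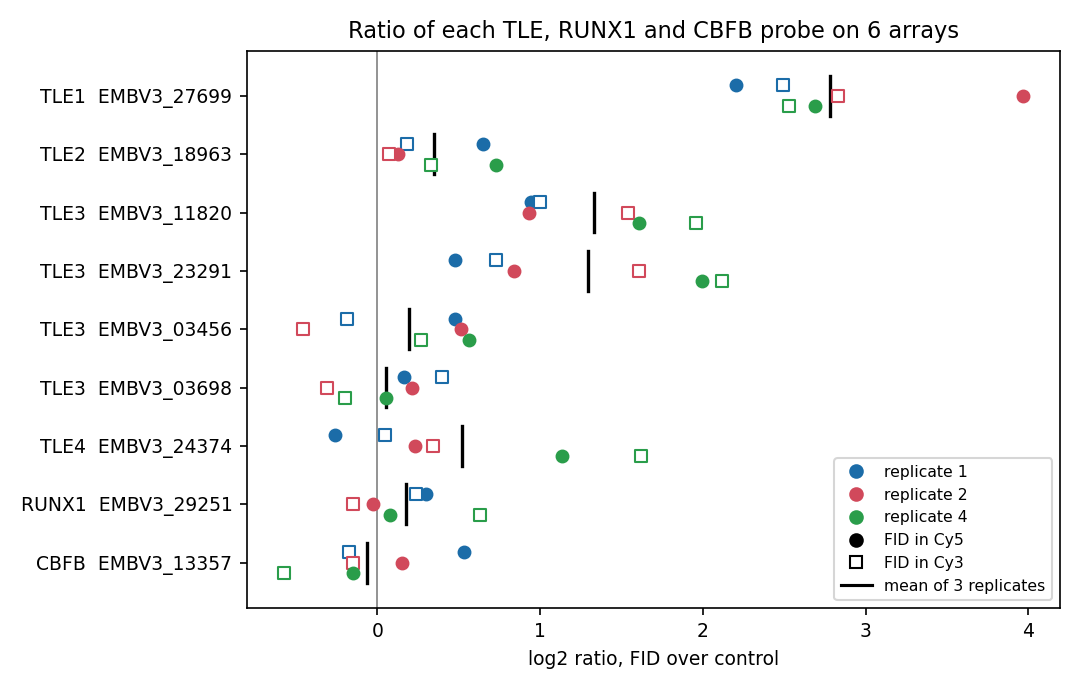
Log2 ratio of FID over control for each of the 9 probes on the 6 arrays, with colours for replicates, symbol shapes for the dye of FID, and bars for the mean of 3 replicates. TLE1 lies between 2.20 and 3.97, the bright TLE3 probes EMBV3_11820 and EMBV3_23291 between 0.48 and 2.12, and the other probes between -0.57 and 0.73, except TLE4 in replicate 4.

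RUNX1, the DNA-binding subunit, was close to the detection limit. Its probe was above background on 4 of 6 arrays in FID cells and on 2 of 6 in control cells, at raw intensities of 135 to 267 in FID cells and 111 to 248 in control cells. Its ratios by replicate were 0.27, -0.09 and 0.35, with a mean of 0.18 ± 0.23 (SD, n = 3), and 4 of 6 arrays had a ratio above 0. FID and control overlapped, and at this signal over background the array limits what can be said of RUNX1.

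CBFB, the subunit that RUNX proteins share, exceeded the background bound on every array in FID and control cells. Its ratios by replicate were 0.18, -0.00 and -0.36, with a mean of -0.06 ± 0.27 (SD, n = 3). The mean was 0.18 over the arrays with FID in Cy5 and -0.30 over those with FID in Cy3. In each replicate the Cy5 array read higher, by 0.70, 0.30 and 0.43, so for CBFB the dye gap was larger than the mean ratio.

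**Figure D3:**
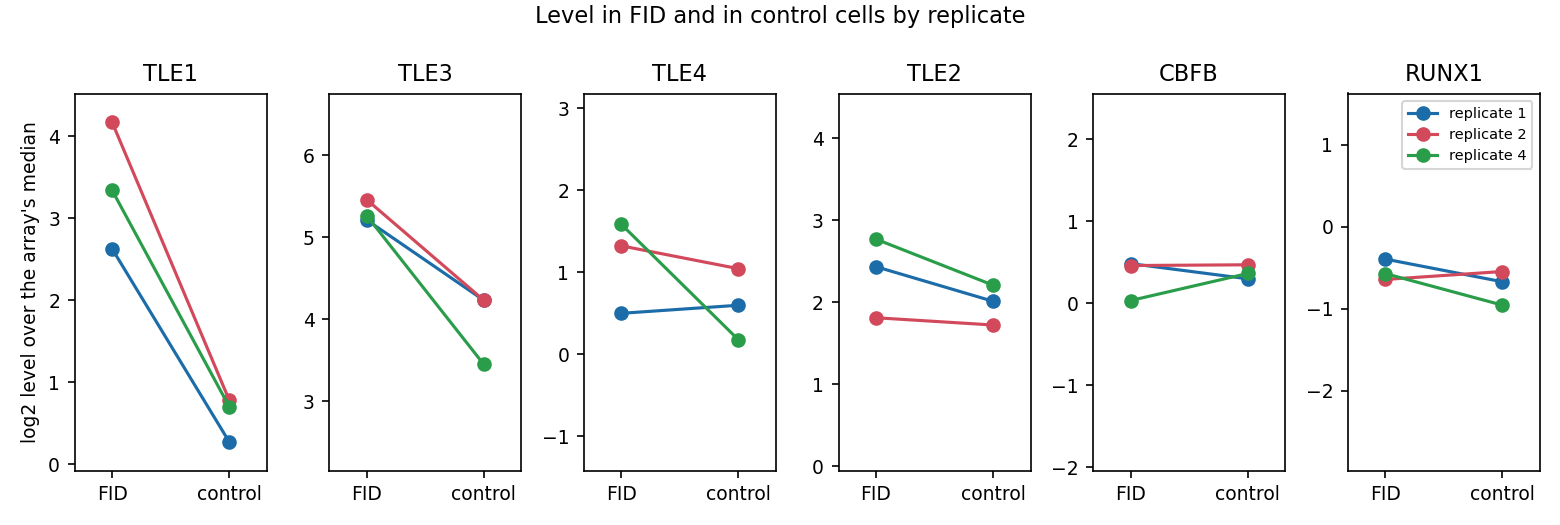
Log2 level over the array's median in FID cells (left) and control cells (right), 1 line per replicate, for the brightest probe of each of 6 genes; every panel spans the same range on its own axis. TLE1 and TLE3 do not overlap between conditions, and FID and control overlap in TLE4, TLE2, CBFB and RUNX1.

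Across the members, 5 of 6 had a mean ratio above 0, where 51.4% of all 12363 genes did. Ratios above 0 on 6 of 6 arrays were seen for TLE1, TLE2 and TLE3, that is 3 of 6, where 12.5% of all genes had them. Normalized levels were higher in FID cells without overlap for TLE1 and TLE3, 2 of 6, where this held for 6.37% of all genes. TLE1 alone passed an adjusted p of 0.05 in the limma fit over all probes, 1 of 6 members, where 2.36% of all genes and 1.73% of all probes passed in either direction and 1.07% of genes were higher in FID cells. Another fit over the 6 arrays held the replicate as a random block and a term for dye. In it TLE1 and TLE3 passed, 2 of 6, where 20.8% of genes passed in either direction and 8.84% were higher in FID cells. Since this contrast chose the members, nothing is read from these counts. The smallest adjusted p of the limma fit was 0.0476, and leaving out any 1 of replicates 1, 2 and 4 left no probe past 0.05, TLE1 included, with 4863 to 6576 probes at an unadjusted p under 0.05.

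The median ratio of the 6 members was 0.43, against 0.01 over all genes, and it was 0.17 without replicate 4. TLE1 exceeded the brightest TLE3 probe by 1.37, 2.16 and 0.82 in the ratios of replicates 1, 2 and 4. In order of mean ratio the members ran TLE1, TLE3, TLE4, TLE2, RUNX1 and CBFB. TLE1 lay above TLE3, and TLE3 above TLE4, in each of the 3 replicates. From TLE4 down to CBFB, the means of neighbours in this order differed by less than the larger SD of the pair. The ratios of the TLE genes thus differed among themselves.

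**Figure D4:**
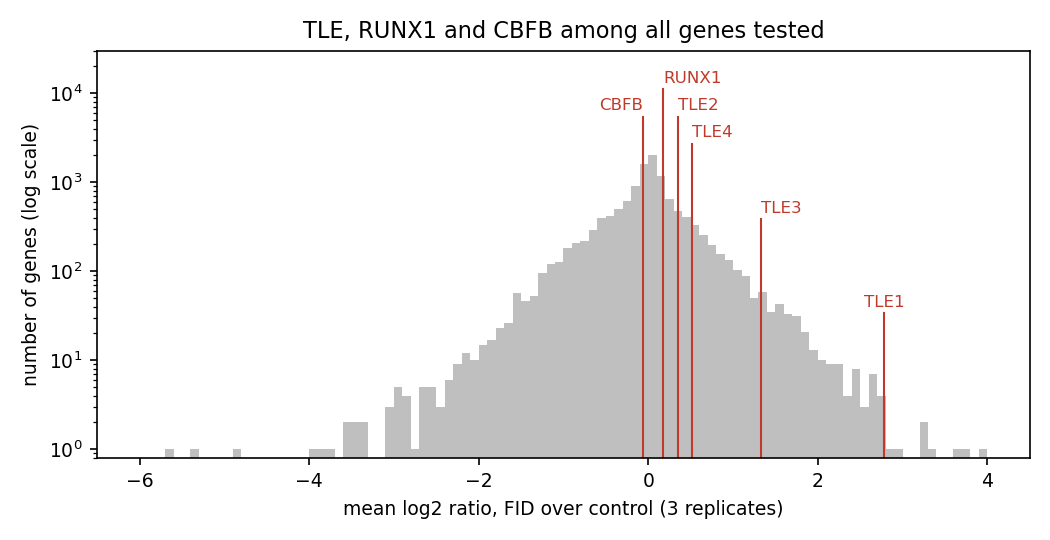
Number of genes (log scale) by mean log2 ratio of FID over control in 12363 tested genes, with lines at the 6 members. TLE1 at 2.78 lies near the upper end and TLE3 at 1.33 above 97.7% of genes, while CBFB, RUNX1, TLE2 and TLE4 lie between -0.06 and 0.52.

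The wider family was read from lists of pathway genes drawn up with earlier results of these data known. Over 8 lists 98 distinct genes were tested and 1 passed the limma test across all probes, where 2.36% of all genes passed. An unadjusted p under 0.05 was seen in 7561 of all 32124 tested probes, and a mean ratio above 0 in 51.4% of all genes. The counts of each list below stand beside these shares, and nothing is read from them. Of the relatives of TLE, 2 of 4 listed symbols were tested and none passed, with 1 at an unadjusted p under 0.05 and a list median of -0.06. TLE5, present under its older symbol AES, is a short family member that lacks the WD40 domain and can oppose the long forms. It had a ratio of -0.37 ± 0.21 (SD, n = 3) and was lower in FID cells on 6 of 6 arrays (limma adjusted p = 0.181). The rule for naming it required the same sign on 6 of 6 arrays. TLE6, a family member of the oocyte's subcortical complex that also stands in the oocyte list, had 0.25 ± 0.18 (limma adjusted p = 0.294). RUNX3, RUNX1T1, CBFA2T2 and CBFA2T3, the third RUNX gene and the ETO corepressors, had ratios between -0.21 and 0.02. None of these 4 passed and none had an unadjusted p under 0.05.

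Factors listed as bringing TLE proteins to genes came next. Of 33 listed 19 were tested, 17 had a mean ratio above 0, where 51.4% of all genes did, and the list median was 0.19. By replicate the median was 0.23, 0.21 and 0.11. Some of the 17 ratios were as small as 0.006, and some probes passed the filter only through FID cells. The list was drawn up with earlier results known, so nothing is read from this share. None of the 19 passed, and 4 had an unadjusted p under 0.05. HEY2, a repressor of the Notch pathway, had a ratio of 1.38 ± 0.49 (SD, n = 3; limma adjusted p = 0.0701). TCF7, a nuclear effector of WNT signalling, had -1.08 ± 0.58 (limma adjusted p = 0.114). MSX1, a homeodomain repressor, had 0.79 ± 0.74 with 1.65 in replicate 2. TCF7L1, another TCF factor, had 0.40 ± 0.15 with 1 of its 3 probes of the opposite sign. HEY2, TCF7, MSX1 and TCF7L1 kept their sign on 6 of 6 arrays, as the rule for naming them required.

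Corepressor and chromatin partners showed both directions. Of 25 listed 19 were tested, 7 had a mean ratio above 0, the median was -0.11, none passed and 6 had an unadjusted p under 0.05. HDAC5, a class IIa histone deacetylase, had a ratio of 1.43 ± 0.42 (SD, n = 3; limma adjusted p = 0.0588). HDAC1, a class I deacetylase that TLE proteins bind, had -0.91 ± 0.28 (limma adjusted p = 0.0701). KDM1A, a histone demethylase, had -0.87 ± 0.60, and NCOR1, a nuclear receptor corepressor, had 0.87 ± 0.49, with limma adjusted p = 0.164 and 0.124. All 4 kept their sign on 6 of 6 arrays, as 27.9% of all genes did and as the rule for naming them required.

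Genes whose products modify TLE proteins were 9 of 15 listed, with 5 above 0, a median of 0.03, none past the test and 3 at an unadjusted p under 0.05. RNF6, a ubiquitin ligase that marks TLE proteins for degradation, had a ratio of 0.76 ± 0.07 (SD, n = 3; limma adjusted p = 0.0531), with 0.72, 0.84 and 0.71 in replicates 1, 2 and 4. CSNK2A2, a catalytic subunit of the kinase CK2, had 0.98 ± 0.42 (limma adjusted p = 0.0898). VCP, an ATPase that extracts ubiquitinated proteins, had 0.50 ± 0.10 (limma adjusted p = 0.0827), with 1 of its 2 probes of the opposite sign. RNF6 had a narrow spread over replicates. RNF6, CSNK2A2 and VCP were above 0 on 6 of 6 arrays, where the rule for naming them required the same sign on all arrays.

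Partners and modifiers of RUNX proteins were 22 of 35 listed, with 10 above 0, a median of -0.13, none past the test and 7 at an unadjusted p under 0.05. ETS2, an ETS factor, had a ratio of 1.52 ± 0.86 (SD, n = 3; limma adjusted p = 0.119), and ATF4, a factor of the integrated stress response, had 1.36 ± 1.14 (limma adjusted p = 0.212). Both were highest in replicate 4, at 2.51 and 2.63. GATA2 had 1.09 ± 1.35, with 2.65 in replicate 2 and at most 0.41 in the other replicates, and TWIST1, which binds and inhibits RUNX2, had -1.06 ± 0.39 (limma adjusted p = 0.0749).

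Genes that RUNX proteins regulate in rodent granulosa cells, bone or blood were 13 of 27 listed. Of these 10 had a mean ratio above 0, where 51.4% of all genes did. The median was 0.13, and 1, MMP9, rose past the test. MMP9, a matrix metalloproteinase, had ratios of 1.67, 1.26 and 1.58 in replicates 1, 2 and 4, with a mean of 1.50 ± 0.21 (SD, n = 3; limma adjusted p = 0.0476), and was higher in FID cells on 6 of 6 arrays. It lost this call in each fit that left out a replicate. CDKN1A, a cell cycle inhibitor, had 1.59 ± 0.46 (limma adjusted p = 0.0575), and VEGFA, an angiogenic factor, had 1.65 ± 1.01 with 2.76 in replicate 4. PTGS2, a prostaglandin synthase of the ovulatory response, had 0.21 ± 0.13 (limma adjusted p = 0.315) and was above background on 4 of 6 arrays in FID cells and 5 of 6 in control cells.

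WNT/TCF target genes, which TLE proteins hold silent in the absence of WNT signal, were 14 of 20 listed. Of these 11 had a mean ratio above 0, where 51.4% of all genes did, and some of the 11 were as small as 0.02. The median was 0.14, none passed and 4 had an unadjusted p under 0.05. APCDD1, a WNT inhibitor, had a ratio of -0.98 ± 0.65, and JAG1, a Notch ligand, had -0.92 ± 0.70, with limma adjusted p = 0.154 and 0.191 (SD, n = 3 each). PPARD, a nuclear receptor, had 0.57 ± 0.38 (limma adjusted p = 0.173). TCF7, which also stands among the recruiting factors, was below 0 like APCDD1 and JAG1. The named members of the list thus lay on both sides of 0. The same sign on 6 of 6 arrays was required by the rule for naming them.

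**Figure D5:**
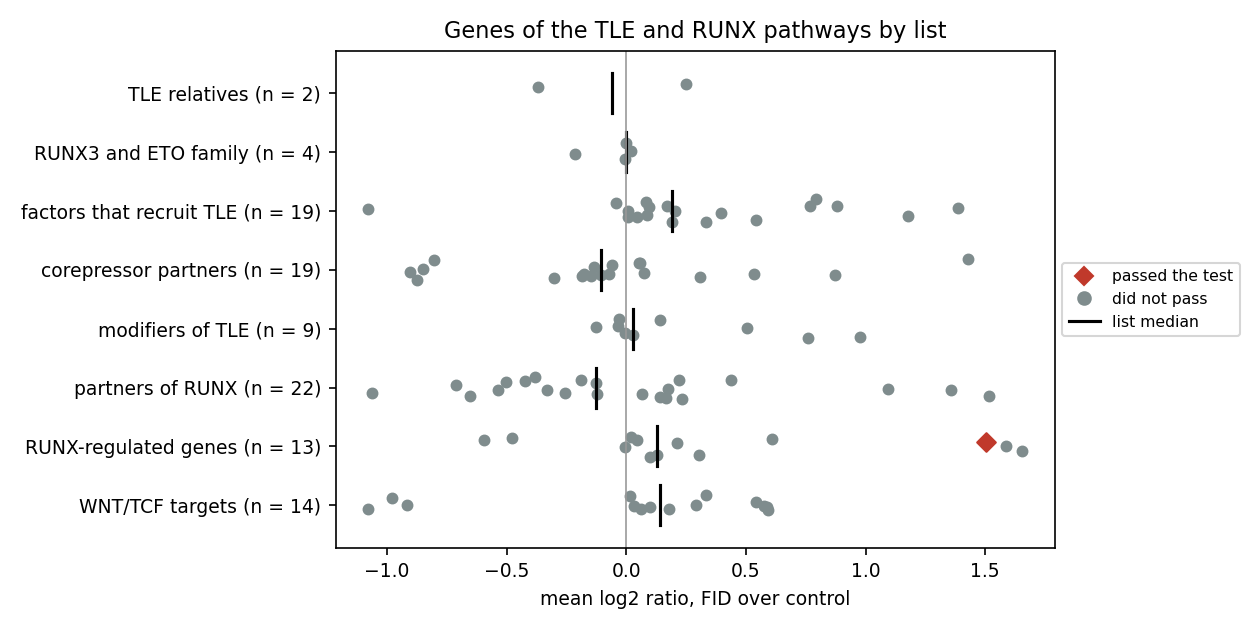
Mean log2 ratio of FID over control for each tested gene of the 8 pathway lists, 1 row per list, with a bar at the list median and diamonds for genes past the limma test. The medians lie between -0.13 and 0.19, and MMP9 at 1.50 is the only gene of the 98 past the test.

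Genes with ratios near those of TLE1 were ranked by Euclidean distance over the log2 ratios of the 6 arrays. This distance weighs the size of the ratios, so a near gene need not share TLE1's pattern over replicates. The 5 nearest were SMPD3, a sphingomyelinase (distance 1.12), HOMER1, a scaffold protein (1.40), RGS2, a regulator of G protein signalling (1.41), SLC2A3, a glucose transporter (1.69), and CLIC3, a chloride channel family protein (1.70). Their mean ratios were 2.67, 2.43, 2.70, 2.92 and 2.49. Like TLE1, RGS2 was highest in replicate 2, at 4.03, against 1.85 and 2.21 in replicates 1 and 4. In replicates 1, 2 and 4 HOMER1 had 1.82, 2.82 and 2.63, and SLC2A3 had 2.87, 2.99 and 2.90. In the same order SMPD3 had 2.52, 2.74 and 2.76, and CLIC3 had 2.79, 2.40 and 2.29. The single arrays of SLC2A3 ran from 2.34 to 3.45, so no replicate of it is called highest. SLC2A3 was saturated in FID cells on 2 of 6 arrays, so its ratios on those arrays are lower bounds.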

How the data were processed

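Gene expression was measured on 2-colour arrays. Each deposited scanner file holds the intensity of every spot and of its local background in both channels, with nothing subtracted, per the file headers. Log2 ratios from the authors were deposited in 2 identical tables, and how these were normalized is not given in the sources used here. Set against the ratios computed here these ran as Cy5 over Cy3 (r 0.992 to 0.997, slopes 0.911 to 0.945), with array medians of -0.0185 to -0.00285 and unknown centring. They were used as an alternative.

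Probe symbols came from the platform annotation (21790 probes with 1 symbol, 22004 with none, and 14114 of 15229 distinct symbols found in RefSeq's cattle annotation of ARS-UCD2.0). The 1418 control spots and 8 spots without an identifier were left out of tests. Spots marked in the files as to be ignored (13 to 88 an array) were removed, mean spot intensity and median background were corrected with normexp (offset 50), and each array was loess normalized in limma 3.58.1 under R 4.3.3. Replicate means were tested by limma with Benjamini-Hochberg adjustment over 32124 probes (557 passed, and 7561 had an unadjusted p under 0.05). Mean spot intensity was taken after the median had been tried, to keep to an earlier processing of these data, and the median is an added alternative. In array comparisons the number of arrays limits the precision.

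The members, lists and tests were chosen with earlier results of these data known. All member probes are named. From each list every gene past the test is named, and otherwise up to 4 genes with the largest ratio among those of one sign on 6 of 6 arrays. TLE6 and the RUNX3 and ETO genes were named after their values were seen. The 5 genes nearest to TLE1 are named.

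Both arrays of a replicate number hold that replicate with the dyes exchanged, per the labels. Their deviations correlated at 0.70, 0.77 and 0.85, against -0.52 to -0.23 between numbers. Deviations from a mean of only 3 replicates tend to correlate below 0 between numbers, so these negative values add no support. The file headers name no slide, so slide was not a block. Alternatives covered background correction, normalization, filter, dye orientation, replicates, probe choice and the authors' ratios.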

Additional observations from a re-analysis of the deposited data

How the results depend on the processing

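The number of probes past the test was 557. It was 0 with marked spots kept in the background fit, with no background correction and with the authors' deposited ratios, and 0 to 0 when 1 replicate was left out, with 4863 to 7428 probes at an unadjusted limma p under 0.05 in these 6 fits. It was 1413 without an offset, and 979 when FID and control both had to exceed background on all 6 arrays. It was 5177 with the replicate block and dye term. With only the arrays with FID in Cy5 it was 1612, and with only those with FID in Cy3 it was 2268. With median spot intensity, an alternative chosen after seeing the data, it was 1520. Since the members were chosen on this contrast, their counts support nothing about them. The members past the test were 1 of 6, TLE1. In the first 6 of these fits there were 0, with a TLE1 adjusted p of 0.0524 to 0.249, and in the other 6 there were 2, TLE1 and TLE3 (of 5 tested with the strict filter). Of 98 pathway genes 1 passed, against 0 in the first 6 fits, 4 without an offset, 2 of 129 with no filter and 3 of 66 with the strict filter. It was 22 with the replicate block, 6 and 8 with FID in Cy5 or Cy3 only, and 4 with median spot intensity. Of all 12363 genes 292 passed, against 710 without an offset and 2567 with the replicate block. With FID in Cy5 or Cy3 only 798 and 1119 of all genes passed, and 805 with median spot intensity. With no filter 577 of 43794 probes passed, and with the strict filter 979 of 18445. Nothing is read from the pathway counts. The median member ratio of 0.43 was 0.17 to 0.57 when 1 replicate was left out. Over the alternatives TLE1 kept a ratio of 2.48 to 3.00, and TLE3 ran from 0.72 to 1.51. TLE4 ran from 0.09 to 0.83, TLE2 from 0.12 to 0.50, RUNX1 from 0.09 to 0.31 and CBFB from -0.30 to 0.18. Median centring split the probes past the test into 234 higher and 529 lower, against 248 and 309 with loess. The cause of these changes was not tested. A fit with slide as a block was not run.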

Other observations

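In RefSeq's annotation of the cattle assembly ARS-UCD2.0, TLE5, TLE2 and TLE6 are consecutive genes, and the annotated spans of TLE2 and TLE6 overlap. Their ratios were -0.37 ± 0.21, 0.35 ± 0.22 and 0.25 ± 0.18 (SD, n = 3 each). RPLP1, a ribosomal protein gene that precedes TLE3 in that order, had ratios of 1.14, 1.49 and 1.27 in replicates 1, 2 and 4, with a mean of 1.30 ± 0.18, while UACA, which follows TLE3, had 0.39 ± 0.58. RPLP1 was picked out after its values were seen.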
